A study of Mus musculus with 16 samples.

Results

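Mouse liver tumours that carry a mutation in Ha-ras, grown without phenobarbital, were compared with untreated control liver. The 2 groups were chosen by the titles of the samples: 3 Ha-ras tumours and 3 untreated controls, together 6 of the 16 arrays of the series. Every gene with a probe set of a single symbol was measured, which gave 18193 genes, all of them taken into the comparison. Per the series design, male C3H/HeJ mice, a strain prone to liver tumours, received 1 injection of the liver carcinogen diethylnitrosamine (DEN) at 10 or 90 µg/g, at an age of 2 or 6 weeks. After 2 weeks without treatment they stayed for 28 to 36 weeks on a diet with 0.05% phenobarbital or without it. The sample labels give plain drinking water for 27 weeks for both groups compared here, and they do not tell the dose or age of each sample, nor whether a control piece came from a tumour-bearing liver. Tumours and controls thus shared sex, strain, the absence of phenobarbital and, per that design, DEN. The other 10 arrays, all of mice under phenobarbital, hold 7 tumours in which Ctnnb1 (beta-catenin) was mutated and 3 control livers.

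Ha-ras is a small GTPase that relays signals of growth factor receptors to the kinases RAF, MEK and ERK, and an oncogenic mutation keeps it in its active form. ERK raises the transcription of immediate early genes and of genes that feed back on the pathway, such as the DUSP phosphatases and the Sprouty proteins. The hepatocyte, the main cell of the liver, makes most plasma proteins, synthesises bile acids and clears drugs, hormones and ammonia, and the growth hormone pulses of male rodents set part of its gene expression.

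All values are log2 RMA levels of a probe set, as the authors deposited them, and a change is the mean of the tumours minus that of the controls, followed by its standard error. A step of 1 is a 2-fold difference, and the low end of the scale holds background. A gene passed where its p in limma, fitted over all 16 arrays and adjusted by Benjamini and Hochberg over the 18193 genes, was under 0.05, and only then is it said to have risen or fallen. Precision is limited by how few arrays there are, and since the labels do not say that samples came from separate animals, the p-values measure the spread between samples. A tumour piece also holds cells other than hepatocytes, so fewer cells of a type and less RNA per cell cannot be told apart.

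The arrays of each group were alike: correlations across genes were between 0.986 and 0.989 within the tumours, between 0.990 and 0.993 within the controls, and between 0.962 and 0.975 across groups. Tumour 3 had the highest correlations with the controls (0.970 to 0.975). Clock genes, which follow the time of day, set tumour 2 and control 2 apart from the other 4 arrays, as described at the end, and results that change without these arrays are named below. Alb and Ttr, defining products of hepatocytes, were at 15.03 or more and at 14.68 or more in every tumour, against 14.92 or more and 14.71 or more in every control. The Ha-ras transcript itself is not analysed here.

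Of 18193 genes 2462 passed, which is 13.5% of those tested. Of these, 1311 rose (7.21% of all genes) and 1151 fell (6.33%). Every list count below is to be set against these shares. At least 2-fold differences were found in 642 genes that rose and 444 that fell, and at least 8-fold differences in 52 and 31. The 3 tumours lay above the 3 controls in 16.3% of all genes and below them in 18.5%. Among the genes that passed, 1296 of those that rose and 1129 of those that fell showed no overlap between the groups. The median change of all genes was −0.04. With tumour 2 and control 2 left out together, 762 genes rose, 736 of them among the 1311, and 503 fell, 491 of them among the 1151. Without tumour 1 or without tumour 2 the count of genes that fell was 705, and without control 1 it was 760.

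Genes that respond to ERK were higher in the tumours. Of 17 measured ERK feedback and target genes 11 rose, against 7.21% of all genes, and the other 6 did not pass. With genes below the median level left out, the count was 7. Dusp6, the phosphatase that switches ERK off in the cytoplasm, was at 11.92, 11.41 and 11.37 in tumours 1 to 3, against 8.98, 8.91 and 9.11 in controls 1 to 3. Spry2, a Sprouty inhibitor of the pathway, was at 7.77, 7.42 and 7.84 in the tumours and at 5.20, 4.90 and 5.59 in the controls, while its other probe set gave 0.13 without passing and the mean of both a change of 1.29. Neither gene overlapped between the groups, and their changes were 2.57 ± 0.32 (adjusted p = 5.93e-05) and 2.45 ± 0.27 (adjusted p = 1.95e-05) by limma. The largest rise of the list was in Il1rn, the antagonist of the interleukin-1 receptor, with levels of 9.41, 9.42 and 9.12 in tumours against 5.82, 4.91 and 6.42 in controls (3.60 ± 0.41). Ccnd1, the D cyclin that carries growth signals into the cell cycle, reached 10.33, 9.98 and 10.63 in tumours, against 7.41, 7.30 and 8.95 in controls, where control 3 was well above the other two. Dusp4, a nuclear ERK phosphatase, was higher by 0.62 ± 0.21 without passing (adjusted p = 0.0619). Spred3 differed by −0.06 ± 0.18 and lay near 3.5 in both groups, at the dim end of the scale. The median change of the 17 genes was 1.25.

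**Figure D1:**
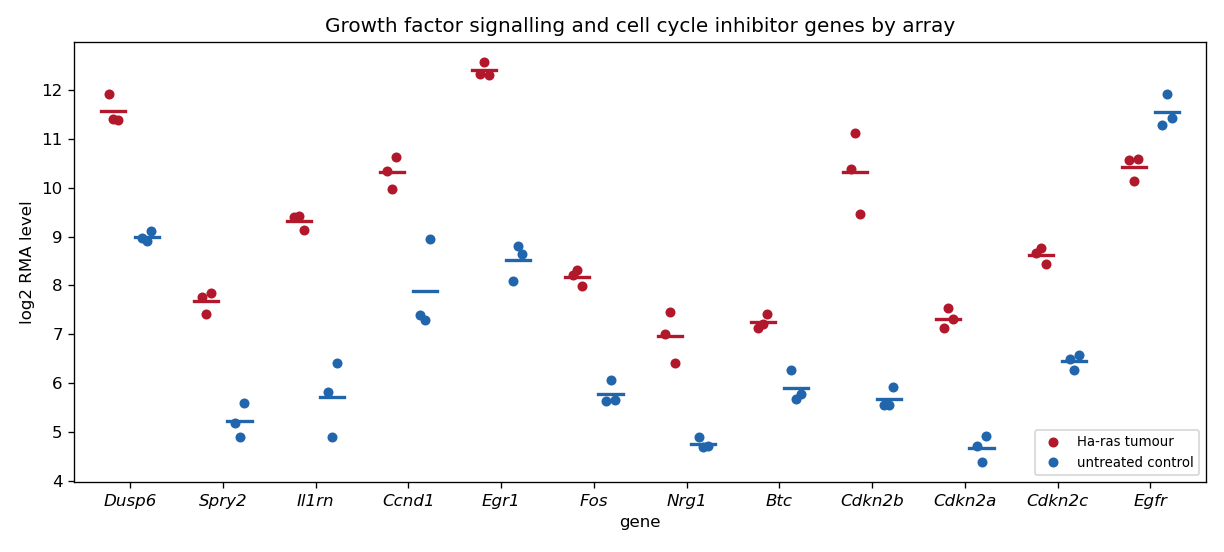
Log2 RMA level (y axis) of 12 genes of growth factor signalling and of cell cycle inhibitors in each array, with the 3 Ha-ras tumours left and the 3 untreated controls right of each gene name. Horizontal bars are group means. In 11 genes every tumour lies above every control, and Egfr is the gene with every tumour below every control. All 12 were picked from genes that passed, so the lack of overlap is largely set by that choice. Over all genes the tumours lie above the controls in 16.3% and below them in 18.5%.

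Immediate early genes, which cells switch on within minutes of a growth signal, gave 6 rises among 12 measured members, and the other 6 did not pass. The transcription factor Egr1 was at 12.32, 12.56 and 12.30 in tumours against 8.09, 8.82 and 8.63 in controls, a 14.7-fold difference (adjusted p = 1.2e-07). Fos, a subunit of the AP-1 factor, was at 8.22, 8.31 and 7.99 against 5.63, 6.07 and 5.67. Klf6, a zinc finger factor, rose by 1.35 ± 0.26, and its other 4 probe sets gave between 1.05 and 1.66. Jun, the partner of Fos, was at 8.18, 7.71 and 7.64 in tumours and 6.54, 6.71 and 6.47 in controls, and with 1.27 ± 0.41 it just missed the threshold (adjusted p = 0.0504). Jun passed under 6 of 17 alternatives, and its other probe set passed by limma (1.12, adjusted p = 0.0367). Fosb, a relative of Fos, differed by 0.02 ± 0.13 and lay between 3.77 and 4.24 in all 6 arrays. The median change of the 12 genes was 1.001.

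Upstream of Ras, several ligands of the EGF receptor family rose. Of 12 measured ligands of receptor tyrosine kinases 4 rose, and the other 8 did not pass. Nrg1, neuregulin 1, had the largest change, with 7.02, 7.46 and 6.41 in tumours and 4.89, 4.70 and 4.71 in controls (2.20 ± 0.24). Btc, betacellulin, rose by 1.34 ± 0.28 and Tgfa, transforming growth factor alpha, by 1.04 ± 0.18, while Hbegf was higher by 0.61 ± 0.26 without passing (adjusted p = 0.138). The fourth, Pdgfa, of the platelet-derived growth factors, rose by 0.96 ± 0.24. Without tumour 2 and control 2 the list held 2 rises, since Btc (adjusted p = 0.0529) and Pdgfa (0.168) no longer passed, and the Pdgfa call was also lost without tumour 2 (0.0769), control 1 (0.0503) or control 2 (0.0501) alone. The other 2 probe sets of Tgfa gave −0.07 and 0.02.

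Of 19 receptors, adaptors and kinases of the cascade itself 2 rose and 2 fell, which is close to the share of all genes. Egfr, the EGF receptor, was at 10.56, 10.13 and 10.58 in tumours against 11.28, 11.92 and 11.41 in controls (−1.11 ± 0.27). Its call was lost without tumour 2 (adjusted p = 0.0581), without control 2 (adjusted p = 0.0607) or without both (adjusted p = 0.188), and 2 of its 6 other probe sets gave changes near 0 (0.06 and 0.01). The list then held 1 fall. Sos1, the exchange factor that loads Ras with GTP, fell by 0.72 on the log2 scale, but its other 4 probe sets lay between −0.04 and 0.25. Rps6ka3, a kinase that ERK activates, rose by 0.89 ± 0.12, with other probe sets at 0.51 and −0.09, and Shc1, an adaptor of the receptors, by 0.60 ± 0.12, with its other probe set at 0.45 without passing (adjusted p = 0.0987). Erbb2 and Erbb3, relatives of the EGF receptor, differed by −0.31 ± 0.21 and −0.42 ± 0.27 without passing.

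The largest rises over all genes included several that belong to none of these groups. Elapor1, a membrane protein of endosomes, was at 10.75, 10.75 and 10.88 in tumours against 5.40, 5.20 and 6.10 in controls, a change of 5.22 ± 0.28 (adjusted p = 2.27e-08). Kif5c, a kinesin motor best known from neurons, was at 10.45, 10.34 and 9.71 against 5.25, 5.10 and 5.47, while its other 3 probe sets gave 3.64, 0.19 and 0.11 and the mean of all 4 a change of 2.21. Scn8a, a voltage-gated sodium channel, was at 9.51, 9.23 and 8.88 against 4.54, 4.44 and 4.94, while its other 4 probe sets lay between −0.16 and 2.70. In each of these the controls lay between 4.44 and 6.10, near the array medians of 5.04 to 5.10. Psrc1, which acts at the spindle in mitosis, rose by 4.40 ± 0.23, with other probe sets at 1.42 and 0.07 and a mean over all 3 of 1.96, and Tlr1, a receptor for bacterial lipopeptides, by 4.33 ± 0.37. Ipcef1, a partner of a cytohesin exchange factor, rose by 4.54 ± 0.29 on the kept probe set, whereas its other 2 probe sets gave −0.13 and −0.20.

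The largest rises also held 3 secreted protease inhibitors, which were picked out after the values were seen. In the wider list of metalloproteases, cathepsins and inhibitors, which of these 3 holds Slpi alone, 6 of 22 measured genes rose and 1 fell. Without tumour 3, control 1 or control 3 that list held 3 rises, its fall was lost without tumour 1, tumour 2, control 2, control 3 or the pair of tumour 2 and control 2, and it held 2 falls without tumour 3 or control 1. Slpi, the secretory leukocyte protease inhibitor, was at 13.12, 13.28 and 13.27 in tumours against 9.01, 8.52 and 9.69 in controls. Wfdc15b, which holds the same kind of inhibitor domain, was at 11.51, 12.02 and 11.82 against 7.69, 6.96 and 7.69, and Spink1, a trypsin inhibitor, rose by 4.98 ± 0.56. Tff3, a trefoil peptide of mucous surfaces, was at 12.87, 13.52 and 13.46 in tumours, against 8.13, 8.61 and 9.61 in controls. Esm1, a secreted proteoglycan first known from endothelium, rose by 4.13 ± 0.49, with tumour 1 highest at 10.69 and tumour 3 lowest at 8.83. Of 15 fetal liver and tumour markers 11 rose, against 7.21% of all genes. The list was chosen with earlier results of these data known. It holds some of the 20 largest rises, such as Akr1c18 (5.04), so its count is partly set by that choice. Igf2, the fetal growth factor, was at 5.25, 6.04 and 5.42 in tumours against 5.87, 5.94 and 5.74 in controls (−0.28 ± 0.94).

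**Figure D2:**
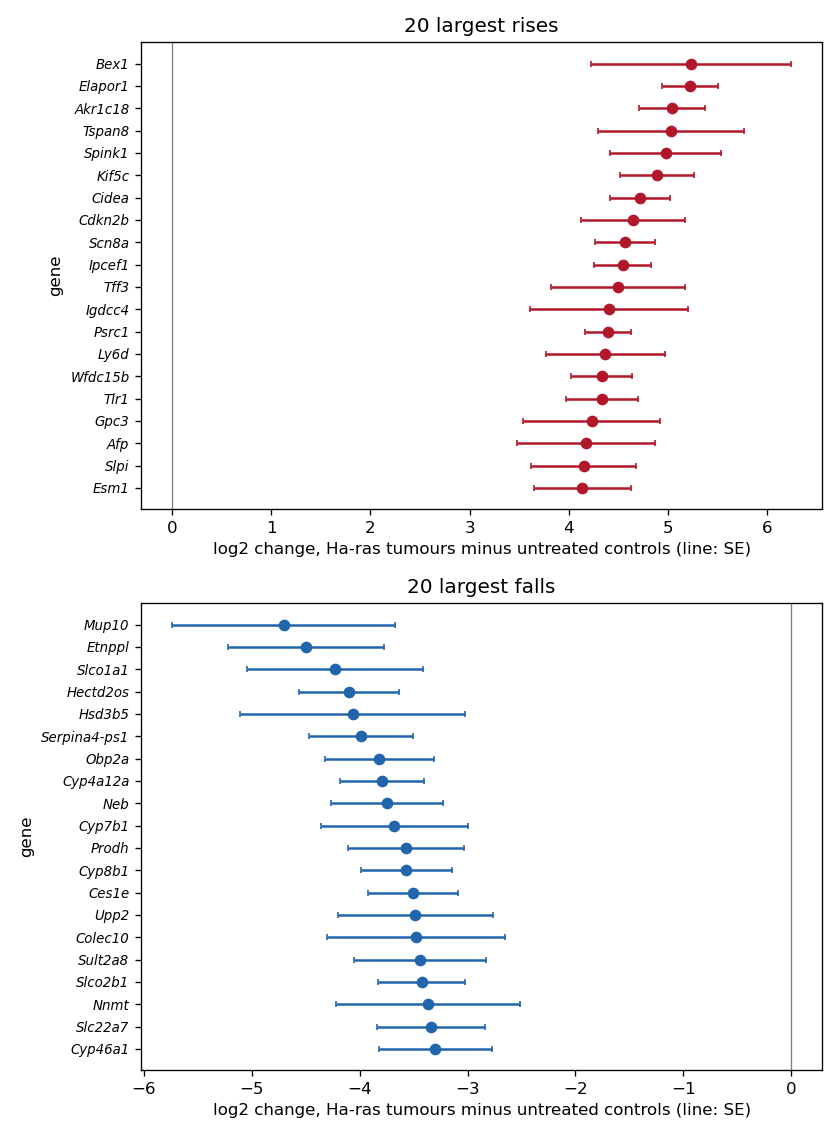
Change of each gene on the log2 scale (x axis, Ha-ras tumours minus untreated controls) for the 20 largest rises (upper panel) and the 20 largest falls (lower panel) among genes that passed without overlap between the groups. Points are changes and lines their standard errors from limma, with Bex1 at 5.23 as the largest rise and Mup10 at −4.70 as the largest fall.

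Several inhibitors of the cell cycle rose. Of 16 measured p53 targets and inhibitors of cyclin-dependent kinases 8 rose, and the other 8 did not pass. Cdkn2b, which encodes the p15 inhibitor of CDK4 and CDK6, was at 10.38, 11.12 and 9.46 in tumours against 5.55, 5.56 and 5.92 in controls (4.65 ± 0.52, adjusted p = 2.38e-05). Its neighbour in the genome, Cdkn2a, which encodes p16 and p19ARF, was at 7.13, 7.53 and 7.31 against 4.72, 4.39 and 4.92. Cdkn2c, the p18 inhibitor, was at 8.66, 8.77 and 8.44 against 6.49, 6.27 and 6.58, and Cdkn1a, the p21 inhibitor under p53 control, rose by 1.95 ± 0.39. No tumour overlapped with a control in any of these 4 genes, and tumour 2 was the highest in each. By contrast, 2 other targets of p53 did not pass: Ccng1 was higher by 0.57 ± 0.21 and Bbc3, which promotes cell death, differed by −0.05 ± 0.26. Without tumour 2 and control 2 the list held 5 rises, and Cdkn1a no longer passed (1.70, adjusted p = 0.0606).

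Proliferation genes were higher as well, with a count that depended on tumour 2 and control 2. Of 25 measured cell cycle genes 14 rose and 1 fell. Ccnb2, the mitotic cyclin B2, was at 5.91, 8.41 and 7.11 in tumours against 4.92, 3.74 and 5.03 in controls, and Ccna2, cyclin A2, was at 6.57, 8.86 and 7.22 against 5.80, 5.51 and 5.38. Tumour 2 was the highest tumour in 17 of the 25 genes, and the mean of the list was 6.09, 7.19 and 6.44 in tumours 1 to 3, against 5.74, 5.27 and 5.56 in controls. Without tumour 2 the list held 3 rises, without control 2 it held 2, without control 1 it held 9, and without tumour 2 and control 2 together it held 0 by limma (10 higher at an unadjusted p under 0.05), with Ccnb2 at 1.53 (adjusted p = 0.064) and Ccna2 at 1.30 (adjusted p = 0.0762). Tk1, the thymidine kinase of DNA synthesis, fell by 1.26 on the log2 scale, a call lost without tumour 1 (adjusted p = 0.0736) or control 1 (adjusted p = 0.0741). None of 15 genes of ribosome biogenesis passed by limma (4 were higher at an unadjusted p under 0.05), with Npm1, a nucleolar chaperone, at 0.51 ± 0.22 and Ncl, nucleolin, at 0.48 ± 0.18. Under 17 alternatives that list held between 0 and 4 rises. Npm1 passed with array weights (adjusted p = 0.0146) and without phenobarbital control 6 (0.0371). Ncl passed with array weights (0.0490) and without tumour 2 (0.0340).

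Part of the genes of cholesterol synthesis rose: 8 of 20 measured genes passed as higher, and 18 of 20 had a positive change. Lss, the lanosterol synthase, was at 10.83, 11.36 and 10.62 in tumours against 9.05, 9.001 and 7.70 in controls. Hmgcs1, which makes HMG-CoA, was at 12.78, 13.66 and 12.70 against 11.28, 11.72 and 10.38, and Dhcr7, of the last reduction step, rose by 1.64 ± 0.29. Pmvk and Mvd, of the mevalonate pathway, were higher by 0.71 ± 0.31 and 1.61 ± 0.52 without passing. Mvd was close to the threshold (adjusted p = 0.0509): it passed under 6 of 17 alternatives, and its other probe set passed (1.46, adjusted p = 0.0155). Control 3 was the lowest control in 19 of the 20 genes, with a list mean of 9.18 against 10.37 and 10.40 in controls 1 and 2. The tumours (10.91, 11.42 and 10.83) lay above all 3. Without control 3 the changes were 1.91 for Lss and 1.54 for Hmgcs1, and both passed.

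The sequences before the start of genes that rose are shown for 4 of them because each group has members with a known short motif there. They are the 150 bases before the annotated start, from the RefSeq annotation of GRCm38.p6, read 5′ to 3′ on the strand of the gene. Capitals mark matches on either strand to TGACGT, the core of the cAMP response element, to CCAAT, the box bound by NF-Y, and to TCACNCCAC, a form of the sterol regulatory element. No 2 matches overlap.
Fos, chr12:85473740-85473889, plus strand: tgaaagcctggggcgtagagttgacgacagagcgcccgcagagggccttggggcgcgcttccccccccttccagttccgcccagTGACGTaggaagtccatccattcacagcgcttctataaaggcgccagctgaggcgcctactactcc
Ccnb2, chr9:70421555-70421704, minus strand: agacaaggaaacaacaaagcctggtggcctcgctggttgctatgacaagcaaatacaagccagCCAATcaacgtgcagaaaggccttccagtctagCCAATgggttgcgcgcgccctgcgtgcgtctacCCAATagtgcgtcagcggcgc
Hmgcs1, chr13:119690201-119690350, plus strand: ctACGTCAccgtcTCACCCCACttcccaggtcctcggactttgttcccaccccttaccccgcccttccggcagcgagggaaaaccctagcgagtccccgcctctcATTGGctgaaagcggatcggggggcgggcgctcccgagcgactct
Lss, chr10:76531455-76531604, plus strand: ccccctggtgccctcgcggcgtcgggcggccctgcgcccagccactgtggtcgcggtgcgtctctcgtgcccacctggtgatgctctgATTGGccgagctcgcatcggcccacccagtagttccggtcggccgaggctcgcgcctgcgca

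The Fos sequence holds TGACGT once, starting 66 bases before the start. That of Ccnb2 holds CCAAT 3 times, starting at 87, 54 and 21 bases before it. That of Hmgcs1 holds a sterol element, starting 137 bases before the start, with a TGACGT match on the other strand at 148 bases and a CCAAT match on the other strand at 45 bases. That of Lss holds CCAAT on the other strand at 62 bases. Over all 32851 promoter entries, windows of this length hold TGACGT in 5.15%, CCAAT in 24.5% and TCACNCCAC in 0.639%. CCAAT is held by 6 of the 6 cholesterol genes that rose and have an entry, by 9 of 12 such cell cycle genes and by 2 of 4 such immediate early genes. In the same order TGACGT is held by 1 of 6, 0 of 12 and 2 of 4, and TCACNCCAC by 1 of 6, 0 of 12 and 0 of 4. Members that did not rise were not counted, and these counts are per gene while the shares are per entry. The counts thus do not tie a motif to a rise. A match describes the letters of the window and was not tested for binding.

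In fatty acid and triglyceride metabolism 9 of 25 genes rose. Scd2, a stearoyl-CoA desaturase that is low in adult liver, was at 12.19, 12.42 and 10.90 in tumours against 8.01, 7.63 and 7.82 in controls, and without tumour 2 and control 2 its change was 3.64 (adjusted p = 0.108). Its other probe sets gave 3.70 and, without passing, 0.87. Fads2, the delta-6 desaturase, was at 12.72, 12.46 and 12.71 against 11.77, 10.98 and 11.08, and Pnpla3, a lipase of lipid droplets, rose by 2.28 ± 0.30. The droplet protein Cidea, normally a brown fat product, was among the largest rises of all genes: it was at 9.05, 9.65 and 8.14 in tumours against 4.14, 4.23 and 4.31 in controls (4.72 ± 0.30). Fasn, the fatty acid synthase, was higher by 0.98 ± 0.32 (adjusted p = 0.0555), and control 3 was again the lowest control, at 9.40. Acacb, of fatty acid oxidation control, differed by 0.17 ± 0.38.

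The largest falls were in Mup10 and Etnppl, and the third was in Slco1a1, which male livers express more than female ones. Mup10, a major urinary protein whose probe set may also read its close relatives, was at 4.13, 7.52 and 8.10 in tumours against 10.97, 11.68 and 11.22 in controls. Etnppl, the phospholyase of phosphoethanolamine, was at 4.82, 7.39 and 8.25 against 11.53, 11.73 and 10.70. In both genes tumour 1 lay far below tumours 2 and 3. Of 11 measured male-biased genes 8 fell, and all 11 had a negative change. Slco1a1, an uptake carrier for organic anions, was at 5.65, 8.08 and 8.52 in tumours against 11.68, 11.86 and 11.41 in controls (−4.23 ± 0.82), and Cyp7b1, an oxysterol hydroxylase, was at 7.66, 10.72 and 11.27 against 13.23, 13.89 and 13.57, with other probe sets at −3.72 and, without passing, −0.14. Cyp4a12a, a fatty acid hydroxylase, was at 7.35, 8.57 and 9.61 against 12.24, 12.28 and 12.39. Tumour 1 was the lowest tumour in 10 of the 11 genes, and the list mean was 7.31, 8.84 and 8.95 in tumours, against 10.53, 11.11 and 10.59 in controls. Of 6 measured female-biased genes 3 rose, among them Cyp2b9, a P450, at 10.87, 10.47 and 10.79 in tumours against 7.76, 6.18 and 7.12 in controls. Cyp17a1, of steroid synthesis, was at 8.62 and 8.83 in tumours 1 and 2 and at 6.81 in tumour 3, against 5.61, 5.21 and 5.26 in controls. The third, Cyp2b13, lost its call without any 1 of the 6 arrays (adjusted p of 0.0502 to 0.152). Members of the Mup and Cyp2 families share sequence, so that the gene measured is uncertain.

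**Figure D3:**
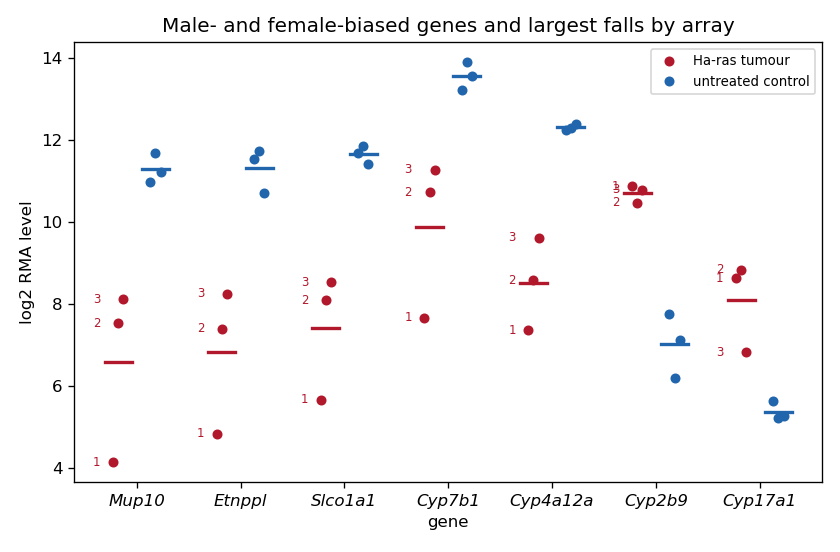
Log2 RMA level (y axis) of 5 genes that fell, Mup10, Etnppl and the male-biased Slco1a1, Cyp7b1 and Cyp4a12a, and of the female-biased Cyp2b9 and Cyp17a1 in each array, with the 3 Ha-ras tumours left and the 3 untreated controls right of each gene name. Horizontal bars are group means, and numbers beside the tumour points give the tumour. Tumour 1 is the lowest point of each of the 5 genes that fell.

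Of 18 partners of growth hormone and IGF 3 rose and 3 fell, against 7.21% and 6.33% of all genes. Without control 3, or without tumour 2 and control 2, the list held 1 rise, which is near the share of all genes. Igfals, which binds circulating IGF in a complex and depends on growth hormone, was at 6.38, 7.09 and 7.49 in tumours against 10.20, 9.96 and 9.81 in controls (−3.004 ± 0.35). Igfbp1, an IGF binding protein of the liver, was at 13.94, 14.13 and 13.58 against 10.70, 10.83 and 10.77, a rise of 3.11 ± 0.24 that placed it among the most abundant transcripts that rose. Of the signalling parts, Jak2, the kinase of the growth hormone receptor, was higher by 0.43 ± 0.14 (adjusted p = 0.0628) and Stat5a differed by −0.07 ± 0.17.

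Of 16 genes of apolipoproteins and lipid transfer 3 rose and 2 fell, and 1 fell without tumour 1, tumour 2, control 1, control 3 or the pair of tumour 2 and control 2. Apoa4 was at 14.63, 14.69 and 14.63 in tumours against 13.10, 12.66 and 13.10 in controls, and Apoc2, the activator of lipoprotein lipase, was at 13.92, 14.03 and 13.87 against 12.50, 12.47 and 12.44. Apom, which carries sphingosine phosphate in HDL, rose by 1.51 ± 0.20, while Apoc4 fell by 0.78 on the log2 scale. Kng1, the precursor of bradykinin, rose by 0.69 ± 0.10 with all 3 tumours between 14.32 and 14.35. Of 11 defining hepatocyte products 1 rose and 1 fell: Ahsg, fetuin-A, by 0.76 ± 0.18, a call that missed the threshold without tumour 2 and control 2 (adjusted p = 0.0563), and Asgr1, a subunit of the asialoglycoprotein receptor, by −0.75 ± 0.11. These counts are close to the shares of all genes, and without tumour 3 the list held 2 falls.

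Among the transcripts that fell, the ones with the highest control level included Rnase4, a secreted ribonuclease, at 11.70, 11.96 and 13.41 in tumours against 14.10, 14.06 and 14.18 in controls. Car3, a carbonic anhydrase, was at 12.16, 13.26 and 13.53 against 14.38, 14.36 and 14.27, with other probe sets between −2.67 and −1.82 against its own change of −1.35, and Gpx1, the cytosolic glutathione peroxidase, was at 12.57, 13.04 and 13.47 against 14.08, 14.13 and 14.15. In all of these tumour 3 was nearest to the controls. This held widely: tumour 3 was the tumour nearest to the control mean in 761 of the 1151 genes that fell, and tumour 1 the farthest in 542. Among the 1311 genes that rose, tumour 3 was nearest in 500 and tumour 2 farthest in 580.

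Transcripts of many carriers for uptake into the hepatocyte were lower, while uptake itself was not measured. Of 15 measured uptake carriers 10 fell and 1 rose, against 6.33% and 7.21% of all genes. Slco2b1, an organic anion carrier, was at 7.21, 6.76 and 7.92 in tumours against 11.27, 10.43 and 10.48 in controls, with other probe sets at −2.30 and 0.16, and Slc22a7, the organic anion transporter 2, at 5.95, 7.60 and 8.31 against 10.62, 10.92 and 10.33. Slco1b2, the main hepatic carrier for bilirubin and many drugs, was at 9.41, 9.64 and 10.59 against 12.92, 12.84 and 12.96, with other probe sets at −3.24 and −3.22 and, without passing, at −0.15 and −0.21. Carriers of fuel did not pass, with Slc2a2, the glucose transporter GLUT2, at −0.13 ± 0.23 and Slc27a2, a carrier and ligase of fatty acids, at −0.16 ± 0.14. The gene that rose, Slc10a2, the ileal bile acid carrier, lost its call without tumour 1 or 2 or control 2 or 3 (adjusted p of 0.0907 to 0.167), and without tumour 2 the list held 6 falls.

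Many cytochrome P450 genes and some conjugating enzymes fell. Of 24 measured P450 genes of drug and steroid metabolism 13 fell and 4 rose, and of 27 conjugating enzymes 11 fell and 1 rose. Cyp2c54 was at 9.70, 9.33 and 10.08 in tumours against 12.49, 12.55 and 12.60 in controls (−2.85 ± 0.21), and Cyp4f14, which hydroxylates leukotrienes and fatty acids, was at 7.19, 8.05 and 8.61 against 11.22, 11.33 and 10.92. Cyp2e1, the ethanol-inducible P450, fell by 1.41 on the log2 scale but was still at 12.50, 12.94 and 13.82 in tumours, against 14.47, 14.41 and 14.61 in controls. Cyp2b10, the usual reporter of the phenobarbital sensor CAR, was at 8.93, 6.04 and 7.17 against 8.33, 7.48 and 6.82, and did not pass. The gene of CAR itself, Nr1i3, was at 6.64, 6.16 and 7.31 in tumours against 9.45, 8.56 and 9.46 in controls (−2.46 ± 0.29). Nr1i2, the related pregnane X receptor, differed by −0.21 ± 0.20, and Hnf4a, a master regulator of the hepatocyte, by 0.09 ± 0.15. Among conjugating enzymes Gsta2, a glutathione transferase, was at 10.18, 9.03 and 9.93 against 11.91, 12.31 and 12.68, and Ugt2b1, a glucuronosyltransferase, at 11.03, 11.07 and 11.82 against 13.44, 13.61 and 13.52. The conjugating enzyme that rose was Sult1a1, a phenol sulfotransferase (0.87 ± 0.15), and 15 of the 27 did not pass.

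Transcripts of bile acid synthesis and transport were lower as well: 10 of 15 genes fell and 1 rose. Some gene lists share members, so their counts are not independent. Slco1a1 is both a male-biased gene and an uptake carrier, Cyp7b1 both a male-biased and a bile acid gene. Cyp2b9 is both a P450 and a female-biased gene. Cyp27a1, which starts the acidic pathway, was at 9.19, 9.41 and 10.17 in tumours against 12.08, 12.04 and 12.06 in controls (−2.47 ± 0.23), while its other probe set gave −0.22 without passing. Cyp7a1, the rate-limiting enzyme of the classic pathway, was at 8.22, 7.40 and 8.95 against 12.51, 10.05 and 11.41, so that tumour 2 and control 2 were each the lowest of their group. Nr1h4, the bile acid receptor FXR, fell by 0.87 on the log2 scale. Abcb11, the export pump for bile salts, fell by 1.40, a call lost without tumour 1 (adjusted p = 0.0506), while Abcb4, the phospholipid flippase of bile, differed by −0.30 ± 0.31. The rise of Abcg5, of sterol export, was lost without tumour 1, tumour 3, control 1 or control 2 (adjusted p of 0.0718 to 0.183). In retinoid metabolism 5 of 17 genes fell and 2 rose. Adh4, an alcohol dehydrogenase active on retinol, was at 8.75, 9.34 and 9.63 in tumours against 11.24, 11.70 and 11.37 in controls, and Aldh1a1, a retinal dehydrogenase, fell by 1.20. Bco1, which cleaves beta-carotene, was at 9.25, 9.46 and 9.52 against 7.35, 7.13 and 7.06, and Rdh5, a retinol dehydrogenase, rose by 1.33 ± 0.14.

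**Figure D4:**
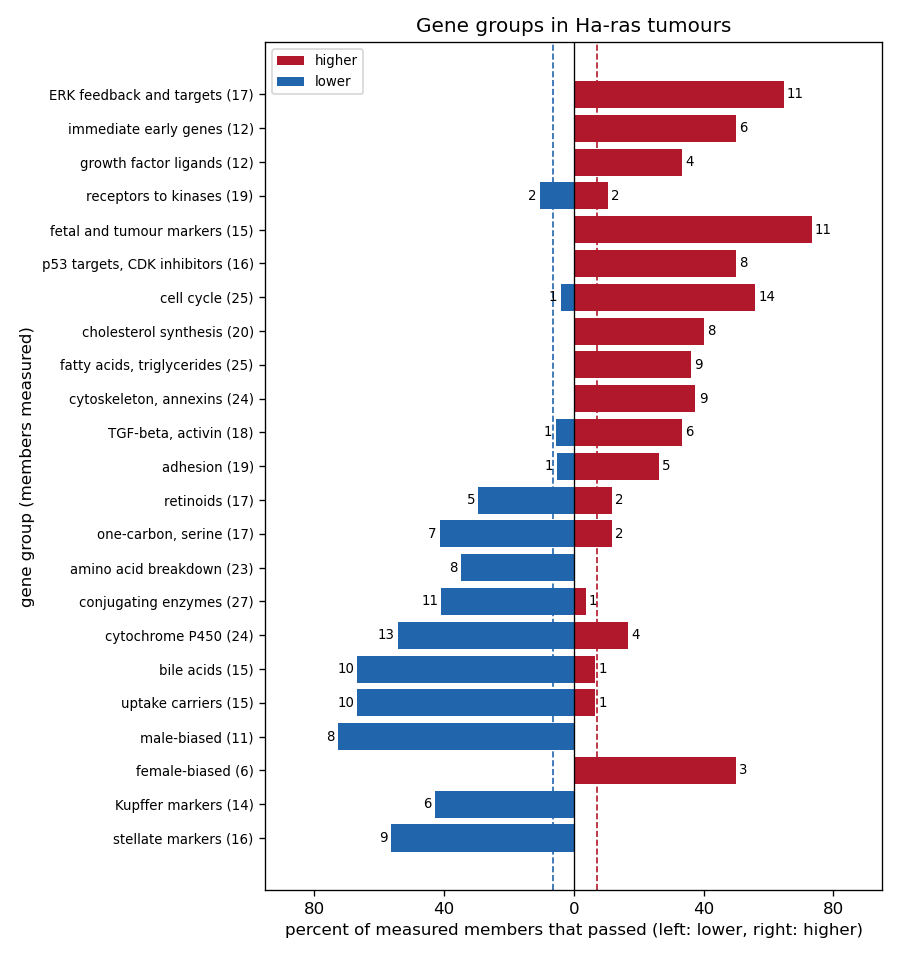
Share of the measured members (x axis, percent) that passed as higher or lower in Ha-ras tumours for the gene groups described in the text, with the number of members that passed written beside each bar. Dashed lines mark the shares over all genes, 7.21% higher and 6.33% lower. Some groups share members, so the bars are not independent.

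Genes of one-carbon metabolism changed in both directions, and part of those of amino acid breakdown fell. Of 17 genes of one-carbon and serine metabolism 7 fell and 2 rose. The 2 that rose make serine: Psat1, the phosphoserine aminotransferase, was at 8.71, 8.20 and 7.69 in tumours against 5.00, 4.49 and 4.78 in controls (3.45 ± 0.35), and Psph, the phosphoserine phosphatase, was at 9.11, 9.03 and 9.04 against 6.93, 6.98 and 6.86. Gnmt, which uses up S-adenosylmethionine, was at 12.07, 12.16 and 13.05 against 14.13, 14.10 and 13.88. Dmgdh, of choline breakdown, fell by 1.55 on the log2 scale and Cth, the cystathionine lyase, by 1.30. Mat1a and Bhmt, of the methionine cycle, were at −0.62 ± 0.32 and −0.99 ± 0.54 without passing. Of 23 genes of amino acid breakdown 8 fell, a count of 5 without tumour 1, of 4 without control 2 and of 4 without tumour 2 and control 2. Prodh, which opens the breakdown of proline, was at 6.93, 6.80 and 8.58 against 11.37, 10.35 and 11.30, and Hpd, of tyrosine breakdown, at 11.73, 11.67 and 13.05 against 13.98, 13.99 and 14.05. Hal, the histidine ammonia-lyase, was at 10.70, 11.22 and 11.41 against 10.85, 11.49 and 10.75 (0.08 ± 0.51). In central carbon metabolism 1 of 20 glycolytic genes rose, Aldoc, an aldolase of brain and fetal tissue (1.37 ± 0.27), and 1 fell, Khk, the fructose kinase (−0.84 ± 0.16). These counts are close to the shares of all genes. Of 17 genes of the citric acid cycle and its entry 8 fell by small steps, such as Sdha, of succinate dehydrogenase, by 0.67, with other probe sets between −0.45 and 0.07. That count was 2 without tumour 1, without tumour 2 or without control 2, 3 without control 1, 5 without control 3 and 0 by limma without tumour 2 and control 2 (9 lower at an unadjusted p under 0.05), with Sdha at −0.67 (adjusted p = 0.0684).

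Part of the genes of cell shape, junctions and TGF-beta signalling rose, while most members did not pass. Of 24 cytoskeletal, annexin and S100 genes 9 rose, or 5 without tumour 2 and control 2. Tubb2a, a beta tubulin, was at 12.55, 12.88 and 12.20 in tumours against 9.51, 10.41 and 9.24 in controls, and Anxa2, a calcium-dependent membrane binder, at 11.40, 11.45 and 11.07 against 8.60, 8.58 and 8.80. The other probe sets of Anxa2 gave 0.07 and 0.44 without passing, and the mean of all 3 a change of 1.05. S100a8 and S100a9, products of neutrophils, differed by −0.25 ± 0.65 and −0.15 ± 0.60. Of 19 adhesion genes 5 rose and 1 fell. Cdh1, E-cadherin, was at 11.08, 11.35 and 10.90 against 6.34, 8.75 and 8.10, with control 1 well below the other controls. Itga6, the alpha 6 integrin, was at 8.67, 8.25 and 8.46 against 5.86, 5.35 and 5.97, and Cdh17, an intestinal cadherin, at 7.06, 8.16 and 6.03 against 3.62, 3.90 and 3.69. The gene that fell was Cdh2, N-cadherin (−0.59 ± 0.17), a call lost without tumour 1, tumour 3, control 1 or control 2 (adjusted p of 0.0822 to 0.113). Of 18 genes of TGF-beta and activin signalling 6 rose and 1 fell. Tgfbr2, the type 2 receptor, was at 11.45, 11.03 and 11.04 in tumours against 8.46, 8.38 and 8.74 in controls (2.65 ± 0.20), with other probe sets at 0.63 and, without passing, at 0.02 and a mean over all 3 of 1.10. Fst, follistatin, which binds activins, was at 8.86, 10.53 and 8.998 against 5.62, 6.43 and 5.75. Tgfb2, a ligand, rose by 1.64 ± 0.25, while Tgfb1 and Tgfb3 were at 0.25 ± 0.21 and 0.03 ± 0.25. The fall of Ltbp1, a latent TGF-beta binding protein, by 0.72 on the log2 scale was lost without tumour 1 or 2 or control 1 or 2 (adjusted p of 0.0514 to 0.0694), its other probe sets gave 0.18 and −0.21, and without tumour 3 the list held 2 falls.

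Markers of other liver cells were given for the whole list of each type. All 14 Kupffer cell and macrophage markers had a negative change and 6 fell. The log2 of their summed level was 11.46, 11.46 and 13.41 in tumours 1 to 3, against 13.25, 12.87 and 13.57 in controls, and tumour 3 was the highest tumour in 14 of 14. Clec4f, a lectin of Kupffer cells, was at 5.68, 7.73 and 8.33 against 9.89, 9.59 and 9.63, and Cd163, a haemoglobin scavenger receptor, at 3.26, 3.54 and 4.49 against 6.72, 5.36 and 6.50. The count of 6 depended on single arrays: it was 2 without tumour 1, tumour 2, control 1 or the pair of tumour 2 and control 2, 3 without control 3, and 10 without tumour 3. Of 16 stellate cell and fibroblast markers 9 fell, with a log2 sum of 12.25, 12.02 and 12.77 in tumours against 13.42, 13.29 and 13.23 in controls. Another 4 were higher without passing: Reln by 0.75, Col1a2 by 0.74, Col3a1 by 0.61 and Col1a1 by 0.46. Dcn, the proteoglycan decorin, was at 8.78, 9.33 and 10.00 against 11.91, 11.47 and 11.38, with its other probe set at −0.44 without passing, and Lum, lumican, at 7.14, 7.22 and 7.36 against 8.89, 9.12 and 9.05. No marker of 14 for sinusoidal endothelium, 12 for lymphocytes, 10 for neutrophils and monocytes or 8 for bile ducts passed by limma. At an unadjusted p under 0.05 there were 3 higher and 3 lower of the endothelial markers, 1 higher of the bile duct markers and 0 of the others. The log2 sum of the endothelial markers was 11.53, 12.24 and 12.61 in tumours against 12.69, 12.80 and 12.83 in controls. Of 5 red cell markers 2 fell, Alas2, the erythroid enzyme of haem synthesis (−2.31 ± 0.38), and Klf1, an erythroid factor (−1.90 ± 0.23), while Hba-a1, an alpha globin, differed by 0.03 ± 0.15 on a probe set that lay between 4.16 and 4.72 in all 6 arrays, at the dim end of the scale, as did Slc4a1 and Epb42. The part of these cell types in the changes above was not tested. None of 15 MHC genes passed by limma (0 at an unadjusted p under 0.05), and their list mean was highest in tumour 3 and control 3 (10.39 and 10.14, against 8.86 to 9.39 in the other tumours and 8.70 to 9.16 in the other controls).

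Clock genes split both groups by array. Of 17 measured core clock and output genes none passed by limma, and 1 was lower at an unadjusted p under 0.05. Under the alternatives the list held between 0 and 2 falls. Arntl, which encodes BMAL1, was at 7.33 in tumour 2 and 4.69 and 4.90 in tumours 1 and 3, against 7.44 in control 2 and 4.70 and 5.00 in controls 1 and 3. The other probe set of Arntl passed as lower in tumours by limma (−0.49, adjusted p = 0.0363). Clock, its partner, was at 6.74, 8.07 and 7.12 in tumours against 7.10, 8.23 and 7.01 in controls. The cause was not tested. The period genes, named after their values were seen, ran the other way, with Per2 at 8.24, 5.91 and 7.86 against 7.77, 6.24 and 6.99 and Per3 at 8.50, 6.72 and 8.81 against 8.78, 6.41 and 8.22. Dbp, an output gene of the clock chosen in the same way, was at 12.07, 10.67 and 12.08 against 11.82, 10.52 and 11.98. In 9 of the 17 genes tumour 2 and control 2 were both the lowest of their group, and in 4 both the highest. The labels give no time of death for the samples.

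**Figure D5:**
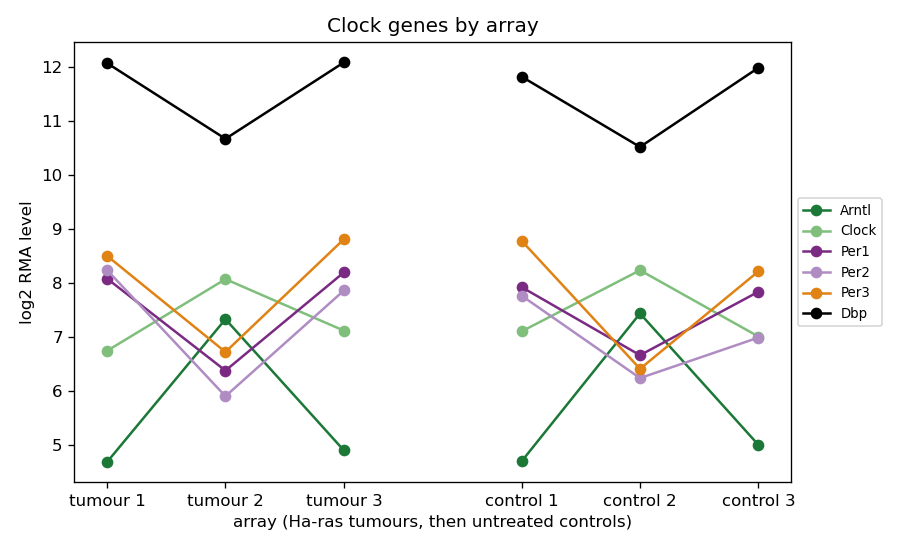
Log2 RMA level (y axis) of 6 clock genes across the 6 arrays (x axis, Ha-ras tumours 1 to 3 and then untreated controls 1 to 3), with 1 line per gene within each group. Arntl and Clock peak in tumour 2 and control 2, where Per1, Per2, Per3 and Dbp are lowest.

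The change in Ha-ras tumours was last set against that of Ctnnb1 tumours and their controls, which share no array with it. Mutation and phenobarbital go together in this series, so the part of each in a difference cannot be told apart. The labels also do not tell whether DEN dose or age differed between the Ha-ras and Ctnnb1 samples. The test was the interaction in the same limma fit. Of all genes 5.43% passed it, 3.29% with the change more positive in Ha-ras tumours and 2.14% with it more negative. In Ctnnb1 tumours 6.07% of all genes were higher and 5.97% lower than in phenobarbital controls. Of the 2462 genes that passed in Ha-ras tumours, 728 also passed the interaction. Opposite calls were made for 83 genes, 45 of which rose in Ha-ras tumours and fell in Ctnnb1 tumours, while 338 genes rose and 290 fell in both. For each of the 83 the interaction passed. That is close to given by their choice, since the difference adds up opposite changes that each passed.

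Of the 17 ERK feedback and target genes 10 passed, each more positive in Ha-ras tumours. The change of Dusp6 was 2.57 ± 0.32 in Ha-ras and 0.08 in Ctnnb1 tumours, and that of Spry2 was 2.45 ± 0.27 and −0.70, with differences of 2.49 ± 0.42 (adjusted p = 0.00201) and 3.15 ± 0.35 (adjusted p = 5.98e-05). Rdh16f2, a retinol dehydrogenase, had the most positive difference among named genes that passed in both tests, with levels of 12.45, 12.79 and 12.20 in Ha-ras tumours against 9.85, 9.88 and 9.42 in untreated controls, and a change of −3.72 in Ctnnb1 tumours (difference 6.48 ± 0.60). Wfdc15b (5.91 ± 0.40) and Cdh1 (5.05 ± 0.94) followed the same way, and Lepr, the leptin receptor, rose by 3.01 ± 0.39 against −1.77 in Ctnnb1 tumours (difference 4.78 ± 0.51), although 1 of its 3 other probe sets gave −0.03 in Ha-ras tumours. More negative in Ha-ras tumours were Cyp7a1 (−3.13 ± 0.57 against 1.62, difference −4.75 ± 0.75), Fam25c (−2.87 ± 0.45 against 1.51) and the long noncoding RNA Snhg11 (−2.92 ± 0.39 against 1.01, with its other probe set at −0.53 without passing in Ha-ras tumours). Of 16 pericentral genes 9 fell in Ha-ras tumours while 7 rose in Ctnnb1 tumours, and 11 passed the interaction. Tbx3, a transcription factor of pericentral hepatocytes, fell by 2.14 in Ha-ras tumours and had a difference of −3.14 ± 0.43, with other probe sets between −2.59 and 0.02 in Ha-ras tumours. By contrast 14 of 25 cell cycle genes rose in Ha-ras and 17 in Ctnnb1 tumours, and none of the 25 passed the interaction by limma (3 at an unadjusted p under 0.05). Of 15 fetal liver and tumour markers 11 rose in Ha-ras tumours, while 4 rose and 1 fell in Ctnnb1 tumours. The median changes of the list were 4.17 and 0.83, and 5 members passed the interaction, each more positive in Ha-ras tumours. Since the list, chosen with earlier results known, holds some of the largest Ha-ras rises, this contrast is partly set by that choice. The list members Afp and Gpc3 did not pass the interaction. Their changes were 4.17 ± 0.70 and 4.23 ± 0.69 in Ha-ras tumours against 4.33 and 4.06 in Ctnnb1 tumours, with differences of −0.15 ± 0.91 and 0.17 ± 0.90. The other 4 probe sets of Afp gave between 0.08 and 4.81 in Ha-ras tumours.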

How the data were processed

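Total RNA of frozen tissue was hybridised to Affymetrix arrays, 1 per sample. The authors deposited log2 expression values per probe set after RMA in R 2.14.1, per the submitters' processing notes. RMA makes the arrays alike in distribution, so a shift of all transcripts cannot be seen. Of 45101 probe sets, 34945 had 1 gene symbol in GEO's platform annotation, 932 several and 9160 none, with 64 array controls left out. The probe set of highest mean was kept for each of 18193 genes. limma 3.58.1 (lmFit and eBayes, R 4.3.3) was fitted with 1 coefficient per group over all 16 arrays, and p-values were Benjamini-Hochberg adjusted. The fit was tested on simulated data. Phenobarbital control 6, which shows a Gapdh 3′ minus 5′ gap of 2.70 against −0.09 to 0.30 in the 6 arrays compared, enters through the pooled spread and the difference. The genes, groups and 59 gene lists were chosen with earlier results of these data known. Named genes were the 20 largest rises and falls without overlap, per list up to 4 passing members, 2 opposite and 2 not passing, the 8 most positive and most negative differences, and the 6 most abundant that fell or rose. Promoters came from RefSeq. Alternatives covered probe set choice, normalization, filters, weights and left-out arrays. Some label texts give a phenobarbital course of other length and other group sizes.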

Additional observations from a re-analysis of the deposited data

Results flagged for a closer look

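The change in Ha-ras tumours differed from that in Ctnnb1 tumours, by the interaction in limma, in 988 of all genes and in 70 of the genes described above. Mutation and phenobarbital cannot be told apart in these differences, and DEN dose and age are not known per sample. Each difference is given on the log2 scale as the Ha-ras change minus the Ctnnb1 change. It was more positive in Ha-ras tumours for 45 of the 70, against 599 of the 988 among all genes. The 70 came from 154 described genes, some of them named for the size of this difference, so their split is no separate result. Among growth factor signalling genes the difference was 3.16 for Egr1, 3.15 for Spry2, 3.02 for Il1rn, 2.49 for Dusp6, 2.26 for Fos, 1.88 for Rps6ka3, 1.33 for Nrg1, 0.72 for Jak2 and 0.58 for Shc1. Among cell cycle inhibitors and spindle genes it was 3.70 for Cdkn2b, 3.70 for Psrc1 and 2.07 for Cdkn2a. For TGF-beta and adhesion genes it was 5.05 for Cdh1, 4.06 for Fst, 2.48 for Cdh17, 1.67 for Itga6, 1.63 for Tgfbr2 and 1.25 for Tgfb2. For secreted and surface proteins it was 5.91 for Wfdc15b, 4.78 for Lepr, 4.47 for Spink1, 3.21 for Tff3, 3.08 for Tlr1, 2.83 for Esm1, 2.00 for Apom, 1.56 for Apoc2, 1.56 for Igfbp1 and 1.09 for Kng1. For lipid, retinoid and steroid enzymes it was 6.48 for Rdh16f2, 4.70 for Cyp2b9, 4.55 for Cidea, 3.07 for Cyp17a1, 2.37 for Pnpla3, 1.53 for Dhcr7, 1.48 for Rdh5 and 1.25 for Fads2. For amino acid and sugar enzymes it was 4.43 for Hal, 2.36 for Psat1, 1.49 for Psph and 1.36 for Aldoc. Hal (change of 0.08) and Jak2 (0.43) did not pass in Ha-ras tumours themselves, so their differences are not Ha-ras rises. The remaining positive differences were 5.43 for Scn8a, 5.18 for Elapor1, 4.93 for Bex1, 4.44 for Kif5c and 4.16 for Ipcef1.

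The difference was more negative in Ha-ras tumours for 25 genes. Among P450 genes it was −4.75 for Cyp7a1, −3.75 for Cyp4a12a, −3.19 for Cyp27a1, −2.91 for Cyp4f14, −2.85 for Cyp2c54 and −1.51 for Cyp2e1. For carriers and conjugating enzymes it was −3.28 for Gsta2, −3.21 for Slco1b2, −2.82 for Slco2b1 and −1.997 for Ugt2b1. For regulators and an RNA gene it was −3.93 for Snhg11, −3.16 for Nr1i3, −3.14 for Tbx3 and −1.54 for Klf1. For other enzymes it was −3.80 for Prodh, −2.22 for Adh4, −2.12 for Rnase4, −2.01 for Alas2, −1.32 for Aldh1a1, −1.13 for Dmgdh and −1.04 for Gpx1. For the remaining proteins it was −4.38 for Fam25c, −2.37 for Igfals, −0.99 for Cdh2 and −0.89 for Asgr1.

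Of 12 genes checked, 1 had a single Ctnnb1 tumour far from the other 6: Tbx3 was at 8.30 in it, against 9.45 to 9.85 in the others. Such a distance is met by chance in about 1 of 20 groups. Among the 10092 probe sets without a single gene name, which entered no comparison above, 185 were higher and 155 lower in Ha-ras tumours by limma.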

How the results depend on the processing

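Of 114 described genes that passed, 96 passed under every alternative that refit all genes and tested them, 17 alternatives for 96 of the 114 and 1 fewer for the 18 below the median level, and 18 lost the call under at least 1. Where leaving out arrays did it, the adjusted p stands above, except that without tumour 2 and control 2 the call was also lost for Abcg5 (0.0645), Cyp2b13 (0.289), Ltbp1 (0.171) and Slc10a2 (0.219). With the mean of all probe sets the call was lost for Ltbp1 (adjusted p = 0.129), Sdha (0.0504) and Sos1 (0.452), with the probe set of highest variance for Shc1 (0.0958), with a trended and robust eBayes for Cyp2b13 (0.0539), and with only the 6 arrays for Abcg5 (0.0688), Cdh2 (0.0688), Slc10a2 (0.122) and Tk1 (0.0529). Of the described genes that did not pass, 11 did so under at least 1 alternative. The count of genes that rose, 1311, was 642 with a 2-fold minimum and 762 without tumour 2 and control 2, an alternative chosen after seeing the data, and between 954 and 1117 with 1 of the 6 arrays left out. The count of genes that fell, 1151, was 444 with a 2-fold minimum, 503 without tumour 2 and control 2, 1908 with array weights and between 705 and 1156 with 1 of the 6 arrays left out. The count for the difference, 988, was 508 without tumour 2 and control 2, 1547 with array weights and between 648 and 943 with 1 of the 6 arrays left out. Without phenobarbital control 6 in the fit, 1590 genes rose, 1441 fell and 897 passed for the difference. The replicate block over the 6 arrays gave 1582 genes that rose and 1313 that fell. Same-numbered arrays deviated together by correlations of 0.0302, 0.399 and 0.238 for numbers 1 to 3. Tumour 2 had −0.0985 and −0.322 with controls 1 and 3, and tumour 3 had 0.0654 and −0.289 with controls 1 and 2. Tumours 2 and 3 thus matched their own number best, while tumour 1 correlated best with control 3 (0.0709). With 3 samples per group these values cannot decide whether the numbers pair the samples, and the main fit took them as unpaired. Among list counts of 5 or more, those that moved by over 1.5 times under alternatives that keep all 6 arrays were, with genes below the median level left out, 7 for ERK targets, 9 for cell cycle rises, 3 for adhesion rises and 3 for Kupffer falls. They were 5 for citric acid cycle falls with the mean of all probe sets, and 13 for cholesterol rises, 11 for one-carbon falls and 10 for Kupffer falls with array weights. With only the 6 arrays they were 8 for cell cycle rises, 15 for pericentral falls and 3 for Kupffer falls, and with the replicate block 13 for cholesterol rises, 14 for pericentral falls and 8 for adhesion rises. Of 99 other probe sets of these genes 58 passed the same way and 27 had the same direction without passing. The 14 of opposite sign were Egfr (0.0572 and 0.0125), Ipcef1 (−0.13 and −0.20), Lepr (−0.0287), Ltbp1 (0.18), Rps6ka3 (−0.0905), Scn8a (−0.16), Sdha (0.0689), Slco2b1 (0.16), Sos1 (0.0157 and 0.245), Tbx3 (0.0219) and Tgfa (−0.0724). Jun passed with only the 6 arrays (adjusted p = 0.00263). The causes were not tested. Signal over background limits dim probe sets, where the scale is compressed.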
